A study of Mus musculus with 6 samples.

Results

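The fetal gene program and the natriuretic peptides were followed through 7 genes: Nppa, Nppb, Myh6, Myh7, Acta1, Actc1 and Ankrd1. They were taken by symbol from a table of read counts for 38293 genes, and each of the 7 symbols matched 1 row. All 7 passed edgeR's filter on low counts, which kept 14746 genes for testing.

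RNA-seq was made from heart tissue of 3 WT and 3 Zeb2 cKO mice, all adult and all 14 days after MI, which was produced by permanently tying off the LAD artery. The WT mice carried the floxed Zeb2 alleles (Zeb2 fl/fl) without Cre, and the Zeb2 cKO mice carried the same alleles with a Cre recombinase driven by the murine Myh6 promoter, which is active in cardiomyocytes. The strain label of both groups is C57BL/6J (backcrossed), and no sham or uninjured heart belongs to this comparison. The labels name the border region of the infarct as the tissue site, whereas the methods of the study place it in the remote zone. Carrying Cre and losing Zeb2 cannot be told apart in this design. The RNA came from whole tissue, so fewer cells of a type and less RNA per cell cannot be told apart either.

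In the mouse heart, Nppa, Actc1 and Myh6 belong to the normal contractile and endocrine make-up of atrial or ventricular muscle, and the adult ventricle keeps Nppa, Nppb, Myh7 and Acta1 low. Under pressure load, stretch or loss of muscle the ventricle takes up again a set of transcripts that is typical of the fetal heart. The textbook form of this response is a rise of the natriuretic peptides, a shift from the fast myosin heavy chain of Myh6 to the slow one of Myh7, more skeletal actin from Acta1, and more of the stretch-responsive ankyrin repeat protein of Ankrd1. ZEB2, the protein removed in the Zeb2 cKO cardiomyocytes, is a zinc finger repressor that binds E-boxes with the letters CACCTG.

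The letters of 4 motifs were searched on both strands of the 250 bases before each start site: the ZEB E-box (CACCTG), the MCAT motif bound by TEAD factors (CATTCC), the GATA motif (GATAA) and the CArG box bound by SRF. Sequences and start sites are those of RefSeq for GRCm38.p6. Of all 32851 windows of this length, 17.2% held the ZEB E-box, 12.6% MCAT, 22.6% GATA and 1.47% a CArG box. The ZEB E-box was present in Ankrd1 and in 1 of the 2 windows of Myh7. These letters were not in the windows of the other 5 genes. GATA was in Nppa, Nppb and Ankrd1, MCAT in Nppb, Myh6, Myh7, Acta1 and Ankrd1, and a CArG box in Acta1 and Actc1. The stretches shown 5′ to 3′ on the strand of the gene, with motifs in capitals, hold the GATA motifs of the natriuretic peptide genes, the ZEB E-boxes and the CArG boxes. Not shown are the MCAT motifs of Myh6 (206 bases before the start) and Myh7 (201), and a second MCAT (210) and a GATA motif (47) of Ankrd1. A match is a description of the letters and not of a bound site. The start sites of Nppb, Ankrd1, Actc1, Myh6 and the shown window of Myh7 in RefSeq lie inside the gene as drawn by Gencode M21.
Nppa (chr4:148000594-148000658, plus strand, 128 to 64 bases before the start, 2 GATA motifs): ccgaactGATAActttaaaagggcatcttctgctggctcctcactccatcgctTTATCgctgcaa
Nppb (chr4:147985794-147985823, plus strand, 106 to 77 bases before the start, MCAT and 2 GATA motifs): aGGAATGcagctGATAAatcagaGATAAcc
Ankrd1 (chr19:36119938-36119967, minus strand, 123 to 94 bases before the start, MCAT and ZEB E-box): GGAATGaaaattCACCTGcctctgaattgg
Myh7 (chr14:54994594-54994623, minus strand, 74 to 45 bases before the start, ZEB E-box): agggactgggtgCAGGTGggggatggggca
Acta1 (chr8:123894810-123894854, minus strand, 79 to 35 bases before the start, CArG box and MCAT): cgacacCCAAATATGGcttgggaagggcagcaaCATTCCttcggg
Actc1 (chr2:114052903-114052932, minus strand, 57 to 28 bases before the start, CArG box): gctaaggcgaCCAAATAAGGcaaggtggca

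Libraries held 37288174 to 51136331 counts, of which 60.5% to 67.0% fell on the 37 mitochondrially encoded genes and at least 14301225 on other genes. Values are CPM, counts scaled to the TMM-normalized library size, and are given in the order of replicates 1, 2 and 3. Zeb2 itself was at 61.3, 116 and 71.9 CPM in WT and at 59.6, 72.6 and 66.5 CPM in Zeb2 cKO, so that the groups overlapped. Its log2 fold change was -0.33 (SE 0.25, adjusted p = 0.957, edgeR), and -0.0058 (SE 0.12) without WT replicate 2. WT replicate 2 stood apart from the other 5 libraries. Its 13 fibroblast markers summed to 11121 CPM, against 1951.5 to 2780.3 CPM in the others, and its 13 macrophage markers to 962 CPM, against 244 to 339 CPM. Its 19 cardiomyocyte reference genes summed to 36695 CPM, against 56922 to 69799 CPM. The 7 genes, their ratios and most of the other genes and lists named are therefore also given without this library.

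Nppa was the only one of the 7 genes whose groups did not overlap, with all 3 Zeb2 cKO libraries below all 3 WT libraries, and this difference did not pass the adjusted threshold. No gene of the 7, and none of the 14746 tested, passed an adjusted p of 0.05 in edgeR (0.0% called), while 280 genes (1.9%) had an unadjusted p under 0.05, 127 lower and 153 higher in Zeb2 cKO. Scaled to the cardiomyocyte reference genes, the split was 117 lower and 46 higher. Which side was larger also depended on the libraries. It was 827 lower and 307 higher without WT replicate 1, and 161 lower and 232 higher without WT replicate 2. DESeq2 called 2 genes after adjustment and 361 (2.45%) before it. By unadjusted p, 1 of the 7 genes passed in edgeR, which was Nppa, and 0.861% of all genes tested passed and were lower in Zeb2 cKO (1.04% passed and were higher). By the separation of the groups it was again 1 of 7, where 6.36% of all genes did not overlap, 2.97% with every Zeb2 cKO library lower and 3.39% with every one higher. The other 6 genes overlapped between the genotypes. Over the 7 genes 3 log2 fold changes were above 0 and 4 below, with a median of -0.08 beside -0.01 for all genes tested. Without WT replicate 2 these medians were -0.15 and 0.0026.

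**Figure D1:**
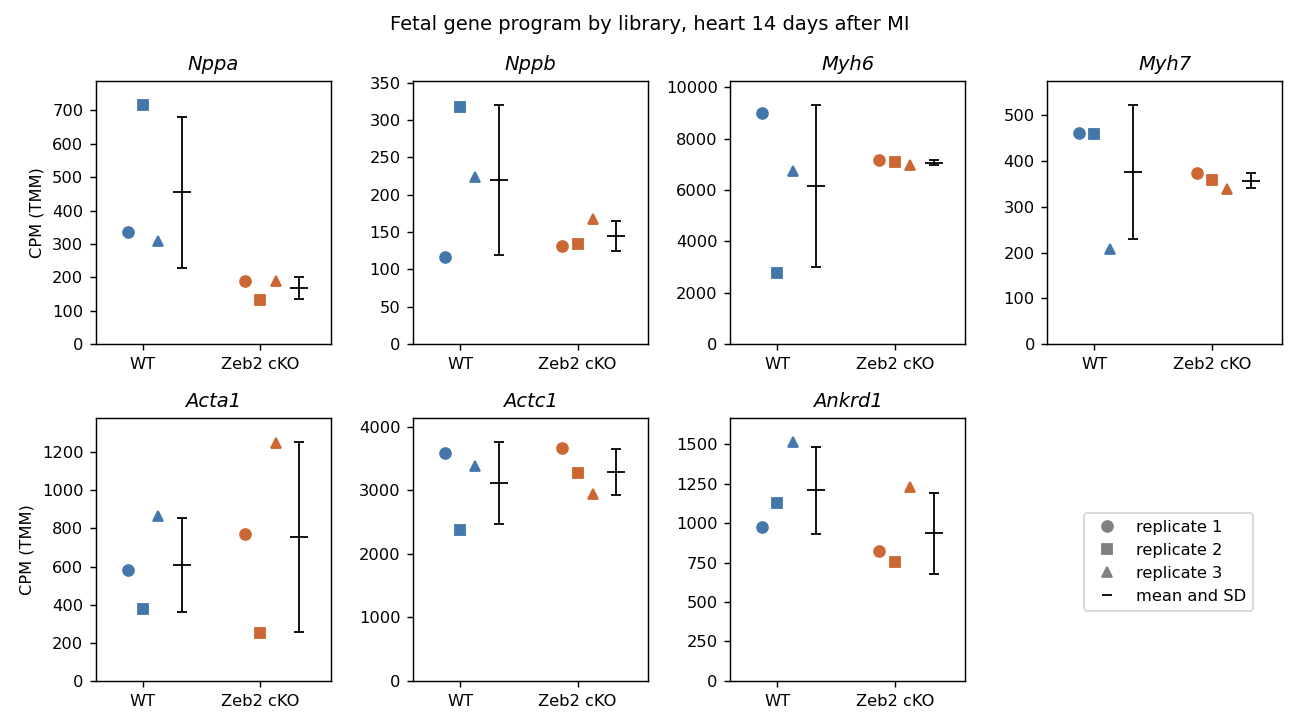
CPM of the 7 genes in each library (y axis from 0, 1 panel per gene), with WT in blue, Zeb2 cKO in orange, symbols for the replicate numbers, and bars for mean and SD (n = 3). Nppa lies at 309 to 717 CPM in WT and at 131 to 189 CPM in Zeb2 cKO, while the other 6 genes overlap between the groups.

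Nppa (ENSMUSG00000041616, chr4:148000722-148002079, plus strand, GRCm38) encodes atrial natriuretic peptide, the hormone that promotes salt and water excretion and vessel relaxation. It was at 337, 717 and 309 CPM in WT (454 ± 227, SD, n = 3) and at 189, 131 and 188 CPM in Zeb2 cKO (169 ± 32.9, SD, n = 3). All 3 Zeb2 cKO libraries lay below all 3 WT libraries, and WT replicate 2, the library with the high fibroblast and macrophage markers, was 2.22 times the mean of the other WT libraries. The part of these cell types in its Nppa level was not tested. The fitted level was 2.68-fold lower in Zeb2 cKO (log2 fold change -1.42, SE 0.36, unadjusted p = 0.00584, adjusted p = 0.957, edgeR). An exact permutation test gave p = 0.1 (two-sided, n = 3), the smallest value that 3 against 3 libraries allow.

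Without WT replicate 2 the difference was smaller and still on the same side. The log2 fold change was then -0.93 (unadjusted p = 0.000781, edgeR), in a fit where 2.63% of genes had an unadjusted p under 0.05. The lowest WT library was 1.64 times the highest Zeb2 cKO library. Set against the summed counts of the 19 cardiomyocyte reference genes, Nppa stood at 4.85, 19.5 and 4.77 counts per 1000 in WT and at 2.71, 2.13 and 3.30 per 1000 in Zeb2 cKO, again with no overlap. In DESeq2 its unadjusted p was 9.33e-05 at a log2 fold change of -1.42. Over 14 settings of the test and the normalization, with each library left out in turn, the log2 fold change ran from -1.84 to -0.93, its unadjusted p stayed at or below 0.0265, and its adjusted p at or above 0.267. Its direction was the same in each of these settings, and none of them called it after adjustment over all genes. As the groups did not overlap, leaving out 1 library could not turn the direction, so those fits bear on its size only. The antisense gene Gm13054, which overlaps Nppa on the other strand, held 3 to 11 counts per library, beside 5705 to 31445 counts for Nppa. The chloride transporter gene Clcn6, the neighbour of Nppa on the other side from Nppb, was at 7.59, 4.79 and 5.599 CPM in WT and at 6.40, 5.6 and 5.51 CPM in Zeb2 cKO, which overlapped.

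Nppb (ENSMUSG00000029019, chr4:147985788-147987205, plus strand), the neighbour of Nppa that encodes brain natriuretic peptide, was at 117, 318 and 224 CPM in WT (219.9 ± 100.4, SD, n = 3) and at 131, 135 and 168 CPM in Zeb2 cKO (145 ± 20.4, SD, n = 3). The lowest and the 2 highest values were all WT, so the groups overlapped. The log2 fold change was -0.60 (SE 0.35, unadjusted p = 0.1252, adjusted p = 0.957, edgeR; exact permutation p = 0.4). The size of the difference depended on which WT libraries entered. Without WT replicate 2 it was -0.24 (unadjusted p = 0.384, edgeR), and without WT replicate 1 it was -0.90 (unadjusted p = 0.00657, edgeR), in a fit where 7.52% of all genes had an unadjusted p under 0.05.

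The balance of the natriuretic peptides, as Nppb to Nppa counts per kilobase of transcript, was 0.385, 0.491 and 0.803 in WT and 0.769, 1.14 and 0.991 in Zeb2 cKO. The ratio was 1.79-fold higher in Zeb2 cKO by the mean of log2 ratios (difference 0.84; -0.91 ± 0.54 in WT and -0.07 ± 0.29 in Zeb2 cKO, SD, n = 3). WT replicate 3 lay above Zeb2 cKO replicate 1, and the exact permutation test gave p = 0.2 (two-sided). Leaving out each library in turn kept the difference between 0.60 and 1.13, at 0.78 without WT replicate 2.

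No gene of the rest of the natriuretic pathway passed an unadjusted p of 0.05 in either direction, where 1.9% of all genes tested did (edgeR). At this share, 0 passing genes in a short list cannot set it apart from all genes. The same holds for the short lists further on. The list held 14 genes, among them those for the third ligand, the receptors, the processing enzymes and cGMP breakdown. Of these, 13 were found by symbol and 11 were tested. Pde2a was not found by symbol, and whether its counts stand under another identifier was not tested. Of the 11 genes 0 had an unadjusted p under 0.05 in edgeR (5 fold changes above 0 and 6 below, median -0.005, and -0.03 without WT replicate 2). Npr1, the receptor through which both peptides raise cGMP, was at 13.6, 9.59 and 10.9 CPM in WT and at 9.95, 13.8 and 15 CPM in Zeb2 cKO. Npr3, the clearance receptor, was at 14.9, 25.8 and 16.6 CPM in WT and at 19.96, 18.2 and 15.9 CPM in Zeb2 cKO. Both receptors overlapped between the groups, with log2 fold changes of 0.18 for Npr1 and -0.09 for Npr3 (0.07 and 0.20 without WT replicate 2). Corin, the protease that activates atrial natriuretic peptide, was at 84.9, 33.04 and 61.3 CPM in WT and at 46.0, 63.8 and 68.7 CPM in Zeb2 cKO, with a log2 fold change of -0.005 (SE 0.34, unadjusted p = 0.989, edgeR), and -0.29 without WT replicate 2. The smallest p of the list among higher genes was that of Pde9a, which breaks down cGMP (log2 fold change 0.39, unadjusted p = 0.216, edgeR, and 0.19 without WT replicate 2), and among lower genes that of Prkg1, the cGMP-dependent kinase (-0.12, unadjusted p = 0.362, edgeR, and -0.16 without WT replicate 2).

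Myh6 (ENSMUSG00000040752, chr14:54941921-54966927, minus strand) encodes the alpha myosin heavy chain, the main motor of the adult mouse ventricle. Its level was 8978.5, 2767.1 and 6732.6 CPM in WT (6159 ± 3145, SD, n = 3) and 7151.8, 7072.5 and 6960.5 CPM in Zeb2 cKO (7062 ± 96.1, SD, n = 3). The WT libraries differed 3.24-fold from highest to lowest and lay on both sides of the Zeb2 cKO libraries, which differed 1.03-fold. In edgeR the log2 fold change was 0.20 (SE 0.44, unadjusted p = 0.67, edgeR; exact permutation p = 0.7). Without WT replicate 2, whose value was 0.352 times the mean of the other WT libraries, it changed sign to -0.15. The Cre of the Zeb2 cKO mice is driven by the Myh6 promoter, and the part of transgene transcripts in the Myh6 counts was not tested.

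Myh7 (ENSMUSG00000053093, chr14:54970684-54994626, minus strand) encodes the beta myosin heavy chain, the slow motor of the fetal ventricle. It was at 462, 459.6 and 208 CPM in WT (377 ± 146, SD, n = 3) and at 373, 359 and 339 CPM in Zeb2 cKO (357 ± 17.0, SD, n = 3). Here WT replicate 3 was the low library, and the Zeb2 cKO libraries lay within the range of WT. The log2 fold change was -0.08 (SE 0.31, unadjusted p = 0.814, edgeR; exact permutation p = 1.0), and without WT replicate 2 it was 0.09. Of the 75-base stretches of the Myh6 transcript, 15.5% occurred without a mismatch in Myh7 as well, and 15.2% of those of Myh7 in Myh6. How reads that fit both genes were counted is not given in the sources used here.

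The Myh7 to Myh6 ratio, per kilobase, was 0.0505, 0.163 and 0.0303 in WT and 0.0512, 0.0498 and 0.0479 in Zeb2 cKO. Myh7 thus made up 4.81%, 14.0% and 2.94% of both chains in WT and 4.87%, 4.74% and 4.57% in Zeb2 cKO. The Zeb2 cKO libraries were close to each other and lay inside the WT range, with the highest and the lowest ratio both in WT. The difference of mean log2 ratios was -0.34 (-3.99 ± 1.24 in WT and -4.33 ± 0.05 in Zeb2 cKO, SD, n = 3; exact permutation p = 0.8, two-sided). Without WT replicate 2, the library with the high fibroblast and macrophage and the low cardiomyocyte markers, the difference turned to 0.34. The part of these cell types in the ratio was not tested.

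**Figure D2:**
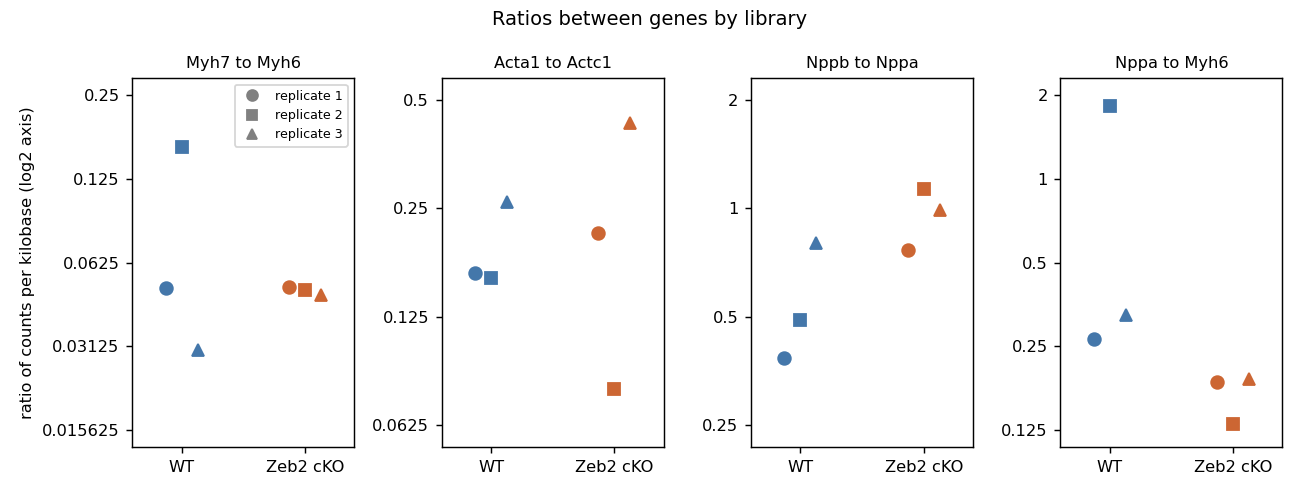
Ratios of counts per kilobase of transcript in each library, on log2 axes, with WT in blue and Zeb2 cKO in orange. The Myh7 to Myh6 ratio of WT replicate 2 (0.163) lies above the other 5 libraries, the Nppa to Myh6 ratio separates the groups (0.265 to 1.83 in WT, 0.131 to 0.191 in Zeb2 cKO), and the other ratios overlap.

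The ratio of Nppa to Myh6, the stress peptide against the adult motor, was 0.265, 1.83 and 0.325 in WT and 0.187, 0.131 and 0.191 in Zeb2 cKO. It was 3.23-fold lower in Zeb2 cKO by the mean of log2 ratios (difference -1.69; -0.89 ± 1.53 in WT and -2.58 ± 0.30 in Zeb2 cKO, SD, n = 3) and did not overlap, at the smallest exact permutation p of 0.1. Without WT replicate 2 the difference was -0.81.

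The Myh6 and Myh7 genes lie next to each other and hold 2 microRNAs and an antisense RNA, which were looked at because each is made in the transcription of its host or opposite to it. The microRNAs of the myosin genes share the seed, bases 2 to 8, shown in capitals in their mature sequences from RefSeq (GRCm38.p6, chromosome 14, minus strand).
mmu-miR-208a-3p, in Myh6 (chr14:54949072-54949093): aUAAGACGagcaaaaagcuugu
mmu-miR-208b-3p, in Myh7 (chr14:54975710-54975731): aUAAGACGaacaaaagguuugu
The libraries were made for long RNA, so the counts are those assigned to the hairpin genes and do not measure mature microRNA. Both hairpin genes lie inside their hosts on the same strand. The part of unspliced host transcripts in these counts was not tested. Mir208a held 34, 4 and 17 counts in WT and 44, 28 and 41 counts in Zeb2 cKO, with the low value in WT replicate 2, the library low in its host Myh6. Its log2 fold change was 0.69 (unadjusted p = 0.32, edgeR), and 0.19 without WT replicate 2. Mir208b held at most 2 counts in any library. Mhrt, a long noncoding RNA transcribed opposite to Myh7 (chr14:54968678-54974349, plus strand), was at 16.5, 4.37 and 15.7 CPM in WT and at 15.3, 16.3 and 13.9 CPM in Zeb2 cKO. Per 1000 Myh6 counts it stood at 1.84, 1.58 and 2.32 in WT and at 2.15, 2.31 and 1.99 in Zeb2 cKO. Myh7 stood at 30.9 to 166 per 1000 Myh6 counts, and at 30.9 to 52.2 without WT replicate 2. The log2 fold change of Mhrt was 0.32 (unadjusted p = 0.494, edgeR), and -0.08 without that library. The kit marks strand, and the strand option of the counting is not given in the sources used here. Of the other myosin heavy chain genes, 5 of 10 were tested and 0 had an unadjusted p under 0.05 in edgeR. Myh7b, a slow-type chain gene, was at 39.6, 10.98 and 23.8 CPM in WT and at 44.3, 33.2 and 26.1 CPM in Zeb2 cKO (log2 fold change 0.48, unadjusted p = 0.313, edgeR, and 0.12 without WT replicate 2). Myh9, a nonmuscle chain, had the smallest p among lower genes (-0.26, unadjusted p = 0.193, edgeR, and -0.27 without WT replicate 2).

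Acta1 (ENSMUSG00000031972, chr8:123891769-123894751, minus strand), the skeletal muscle alpha-actin that returns in the stressed ventricle, was the most variable of the 7 genes within Zeb2 cKO. It was at 582, 375 and 866 CPM in WT (608 ± 247, SD, n = 3) and at 768, 253 and 1249 CPM in Zeb2 cKO (757 ± 498, SD, n = 3). The lowest and the highest library were both Zeb2 cKO, 4.94-fold apart. The log2 fold change was 0.32 (SE 0.57, unadjusted p = 0.597, edgeR; exact permutation p = 1.0), and without WT replicate 2 it was 0.07. The 10 skeletal muscle markers, genes of fast skeletal fibres, were each under 1 CPM in every library and summed to 0.929 to 1.98 CPM.

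Actc1 (ENSMUSG00000068614, chr2:114047282-114053548, minus strand), the cardiac alpha-actin of the sarcomere, was at 3590.2, 2383.9 and 3389.6 CPM in WT (3121 ± 646, SD, n = 3) and at 3668.5, 3268.2 and 2947.0 CPM in Zeb2 cKO (3294.5 ± 361, SD, n = 3). WT replicate 2 was the low library, and the other 5 lay close together. In edgeR the log2 fold change was 0.08 (SE 0.26, unadjusted p = 0.774, edgeR; exact permutation p = 0.8), and -0.08 without WT replicate 2. Against the cardiomyocyte reference genes Actc1 stood at 51.6, 64.97 and 52.3 counts per 1000 in WT and at 52.6, 52.9 and 51.8 per 1000 in Zeb2 cKO. On that scale WT replicate 2 was the high library.

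The Acta1 to Actc1 ratio, per kilobase, was 0.165, 0.160 and 0.260 in WT and 0.213, 0.0788 and 0.432 in Zeb2 cKO. Zeb2 cKO held both the lowest and the highest value. The difference of mean log2 ratios was 0.03 (exact permutation p = 1.0, two-sided), and -0.10 without WT replicate 2, and leaving out single libraries moved it from -0.55 to 0.67. All 4 other actin genes were tested and 0 had an unadjusted p under 0.05 in edgeR. Of these, Actg2, an enteric smooth muscle actin, was lower in every Zeb2 cKO library at under 1.03 CPM (0.266, 1.03 and 0.286 CPM in WT, 0.260, 0.254 and 0.223 CPM in Zeb2 cKO, log2 fold change -1.11, unadjusted p = 0.096, edgeR), with -0.17 left without WT replicate 2. The nonmuscle actin Actg1 had the smallest p among higher genes (0.44, unadjusted p = 0.185, edgeR, and 0.17 without WT replicate 2).

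Ankrd1 (ENSMUSG00000024803, chr19:36111961-36120099, minus strand), which encodes the cardiac ankyrin repeat protein at the titin I-band, was at 976, 1128 and 1516 CPM in WT (1207 ± 279, SD, n = 3) and at 822, 753 and 1228 CPM in Zeb2 cKO (934 ± 257, SD, n = 3). Zeb2 cKO replicate 3 lay above 2 of the 3 WT libraries. The log2 fold change was -0.37 (SE 0.28, unadjusted p = 0.226, edgeR; exact permutation p = 0.3), and -0.41 without WT replicate 2. It was below 0 in all 14 settings, from -0.62 to -0.17, with no unadjusted p under 0.0775.

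Of 11 partners of Ankrd1 among ankyrin repeat and titin-associated genes, 9 were tested and 0 had an unadjusted p under 0.05 in edgeR (8 fold changes above 0, median 0.13, and -0.09 without WT replicate 2). Myot, a Z-disc protein, had the smallest p, with 24.7, 16.8 and 29.5 CPM in WT and 67.5, 20.3 and 55.2 CPM in Zeb2 cKO (log2 fold change 1.01, unadjusted p = 0.0535, edgeR, and 0.82 without WT replicate 2). Zeb2 cKO replicate 2 lay inside the WT range, so the groups overlapped. The only lower gene was Ankrd23 (-0.05, unadjusted p = 0.79, edgeR, and -0.14 without WT replicate 2).

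**Figure D3:**
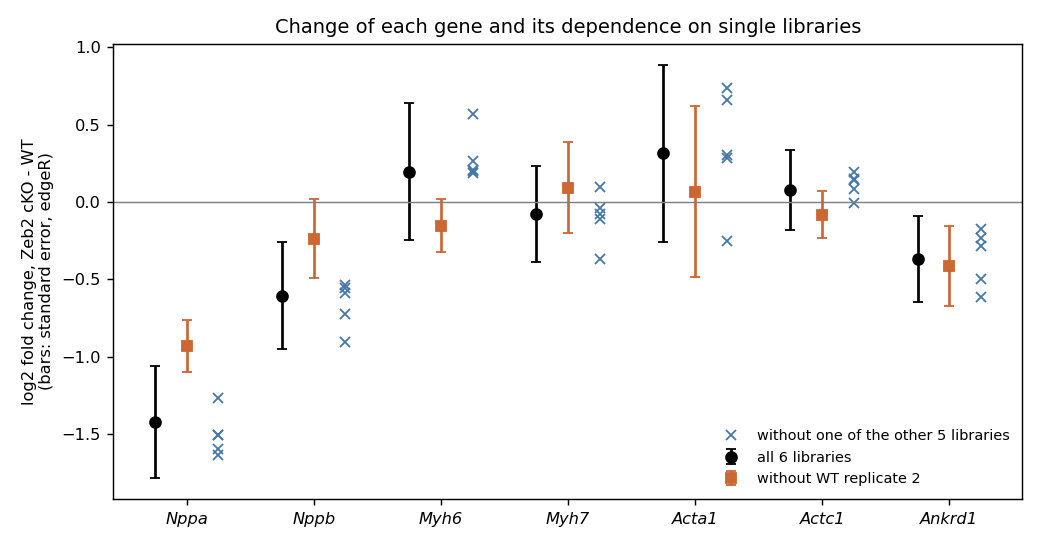
Log2 fold change of each gene, Zeb2 cKO over WT, from edgeR (y axis), with all 6 libraries (black circles, bars are SE), without WT replicate 2 (orange squares, bars are SE) and without each of the other 5 libraries (blue crosses). Nppa stays below 0 in each fit (-1.64 to -0.93), while Myh6, Myh7, Acta1 and Actc1 lie on both sides of 0.

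Levels between genes were compared per kilobase of the longest coding transcript. Actc1 was the highest of the 7 genes in all 6 libraries (1618 to 2490.5 CPM per kilobase, median 2260 CPM per kilobase) and Myh7 the lowest (33.4 to 74.2, median 58.8 CPM per kilobase). Myh6 came next to Actc1 in 5 of 6 libraries (453 to 1469, median 1148 CPM per kilobase), while in WT replicate 2 it was the fourth and Nppa the second. Ankrd1 (373 to 751, median 521 CPM per kilobase), Acta1 (175 to 864, median 467) and Nppa (152 to 828, median 288) followed with overlapping ranges, and so did Nppb (150.2 to 407, median 194). Ankrd1 was above Nppb in each of the 6 libraries, while the places of Acta1 and Nppa changed between libraries.

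Across the 6 libraries the levels of 21 pairs among the 7 genes were correlated as log2 CPM, with exact permutation tests adjusted over the pairs. Nppb and Myh6 ran opposite to each other, with Pearson's r = -0.88 (exact permutation p = 0.00139, adjusted p = 0.0292) and Spearman's rho = -1.0 (p = 0.00278, adjusted p = 0.0583). Without WT replicates 2 and 3, the libraries farthest from the median of Nppb, r was -0.74, and without WT replicate 2 alone it was -0.70. This was the only pair with an adjusted p under 0.05 by Pearson's r, and by Spearman's rho there was 0. Myh6 and Actc1 ran together (r = 0.90, exact permutation p = 0.0389, adjusted p = 0.311), but r was 0.25 without WT replicates 1 and 2, so that the relation rested on those libraries. Nppb and Actc1 ran opposite to each other (r = -0.82, exact permutation p = 0.0444, adjusted p = 0.311). For this pair r was -0.90 without WT replicates 2 and 3, and -0.41 without WT replicate 2 alone. Nppa and Nppb had r = 0.73 (exact permutation p = 0.0972, adjusted p = 0.51) and rho = 0.26, and r was 0.07 without WT replicate 2 and Zeb2 cKO replicate 2. The groups did not overlap in Nppa and are pooled in these values.

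For each of the 7 genes the protein-coding genes with the most similar levels were found by Pearson's r of log2 CPM over the 6 libraries, among 5753 genes with a mean of at least 10 CPM. With so many genes and 6 libraries, high values of r arise easily, and they are given as a description with no test. Nppa was most like Kdm4c (r = 0.99), Ppig (0.98) and Smad2 (0.97). Nppb was most like Fth1, Selenot and Arfip1 (r of at least 0.99), and Myh6 like Flot1, Tmem201 and Pde4dip (at least 0.9975). Myh7 had the lowest values, with Nvl (0.96), Max (0.95) and Strbp (0.95). Acta1 was most like Naa35 (0.98), Atg13 (0.98) and Iars (0.96), Actc1 like Zdhhc3, Cep63 and Asb8 (at least 0.996), and Ankrd1 like Abcg2 (0.99), Cdv3 (0.98) and Kpna3 (0.98). WT replicate 2 was the highest library for Nppa and Nppb and the lowest for Myh6 and Actc1, and its part in these likenesses was not tested.

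Genes that accompany the fetal program in the stressed ventricle were also read as a list. Of 24 such genes 23 were tested, with 7 fold changes above 0 and 16 below, a median of -0.19 (-0.13 without WT replicate 2), and 0 with an unadjusted p under 0.05 in edgeR. Ctgf, the matricellular factor now named Ccn2, was at 80.8, 339.9 and 87.5 CPM in WT and at 39.0, 49.0 and 93.1 CPM in Zeb2 cKO (log2 fold change -1.49, unadjusted p = 0.051, edgeR), and its log2 fold change was -0.48 without WT replicate 2. Zeb2 cKO replicate 3 lay above 2 of the 3 WT libraries. The atrial light chain Myl7 had the smallest p among higher genes (0.717, 0.114 and 0.911 CPM in WT, 0.540, 7.26 and 1.23 CPM in Zeb2 cKO, log2 fold change 2.38, unadjusted p = 0.064, edgeR, and 1.87 without WT replicate 2). Myl4, the other atrial light chain, was at 1.57, 1.37 and 2.40 CPM in WT and at 1.58, 8.07 and 3.07 CPM in Zeb2 cKO, a log2 fold change of 1.25 (1.09 without WT replicate 2). For both light chains Zeb2 cKO replicate 2 was the high library.

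Of 28 regulators of the fetal program, all tested, 1 had an unadjusted p under 0.05 in edgeR. This was Mkl1, also named Mrtfa, the actin-sensing coactivator of SRF, at 5.87, 7.82 and 6.12 CPM in WT and at 3.66, 4.91 and 5.49 CPM in Zeb2 cKO (log2 fold change -0.49, SE 0.20, unadjusted p = 0.0425, adjusted p = 0.957, edgeR), and -0.35 without WT replicate 2. Its groups did not overlap, as was so for 3 more regulators, each lower in Zeb2 cKO. These were the calcineurin target Nfatc2 (-0.24, unadjusted p = 0.122, edgeR), the zinc finger factor Gata6 (-0.17, unadjusted p = 0.133, edgeR) and the mediator subunit Med13 (-0.11, unadjusted p = 0.343, edgeR). Without WT replicate 2 their log2 fold changes were -0.24, -0.16 and -0.08. Being lower in every Zeb2 cKO library was seen for 4 of 28 regulators and for 2.97% of all genes tested. Gata6 was at 20.8, 21.6 and 22.0 CPM in WT and at 19.2, 19.7 and 18.5 CPM in Zeb2 cKO, a small and even difference. Gata4, the GATA factor most studied at the natriuretic peptide promoters, had a log2 fold change of 0.05 (unadjusted p = 0.801, edgeR), and Srf one of 0.09 (unadjusted p = 0.747, edgeR), which were -0.12 and -0.17 without WT replicate 2. The median of the 28 regulators was 0.02, and -0.10 without WT replicate 2.

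The marker genes of the cell types in the tissue set WT replicate 2 apart from the other libraries. All 13 fibroblast markers had a log2 fold change below 0 (median -0.995), and the median was -0.0017 without WT replicate 2. Of 13 macrophage markers 12 were below 0 (median -0.82, and 0.04 without it). Of the 19 cardiomyocyte reference genes 18 were above 0 (median 0.16, and -0.09 without it). In none of these lists did a gene have an unadjusted p under 0.05 in edgeR. Endothelial markers summed to 505 to 725 CPM and smooth muscle and pericyte markers to 1077 to 1572 CPM, both lowest in WT replicate 2. This held for the sums and not for each gene, as Emcn, Eng, Tagln and Pdgfrb were highest in that library. Des alone held 505 CPM of the smooth muscle and pericyte sum of WT replicate 2. The medians of these lists were 0.15 and 0.09, and -0.0046 and 0.0005 without that library.

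Atrial tissue, where Nppa is abundant in the normal heart, was checked by 8 markers apart from Nppa. They summed to 28.6, 69.8 and 27.0 CPM in WT and to 20.1, 42.4 and 30.6 CPM in Zeb2 cKO, so the sums overlapped. Of the 8, 6 were tested and 0 had an unadjusted p under 0.05 in edgeR (median log2 fold change 0.77, and 0.68 without WT replicate 2). Bmp10, an atrial defining gene, had no count in any library, and Sln, the atrial regulator of the calcium pump, was at 0.0531, 0.0228 and 0.312 CPM in WT and at 0.0400, 1.75 and 0.279 CPM in Zeb2 cKO. Dkk3 was at 7.89, 64.3 and 12.1 CPM in WT and at 9.37, 12.1 and 11.6 CPM in Zeb2 cKO (log2 fold change -1.35, and 0.14 without WT replicate 2), and made up most of the atrial sum of WT replicate 2. Sln, Myl7 and Myl4 were highest in Zeb2 cKO replicate 2 and Dkk3 in WT replicate 2. The part of atrial tissue in the Nppa levels was not tested.

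**Figure D4:**
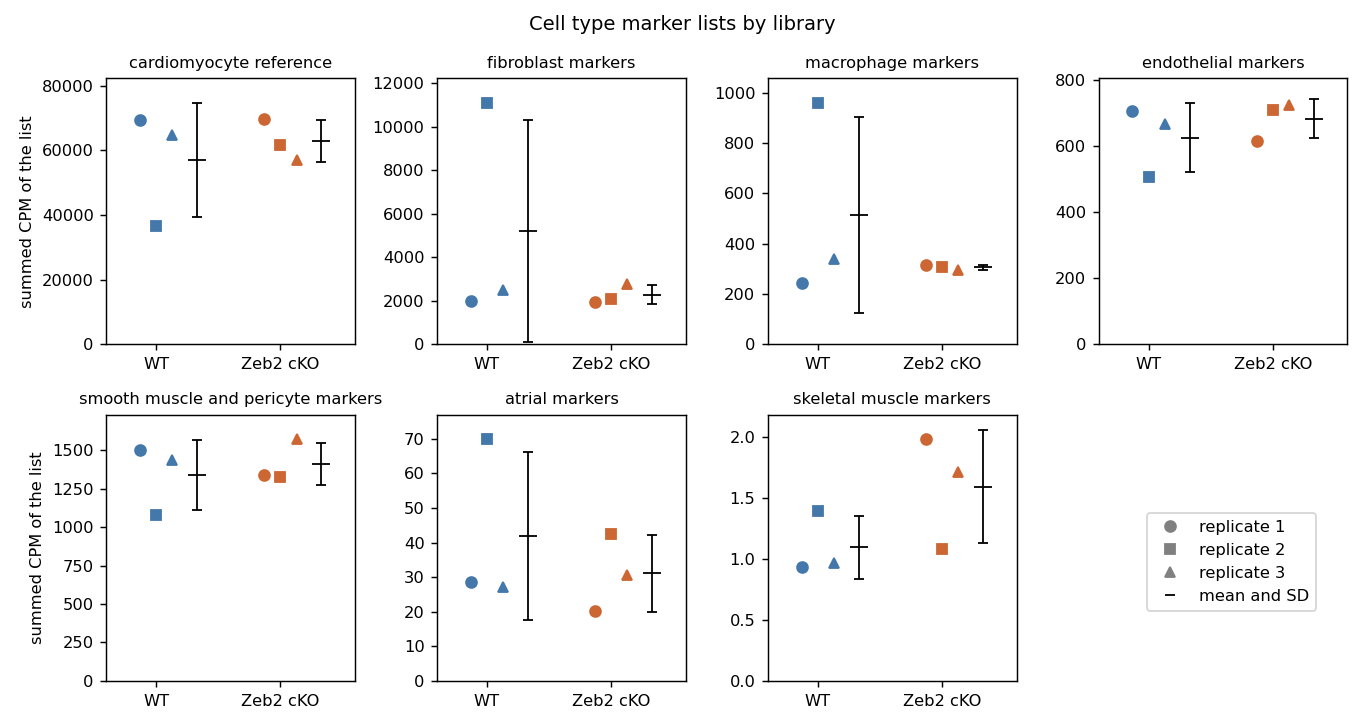
Summed CPM of the genes of each marker list in each library (y axis from 0), with WT in blue, Zeb2 cKO in orange, and bars for mean and SD (n = 3). WT replicate 2 has the highest fibroblast (11121 CPM) and macrophage (962 CPM) sums and the lowest cardiomyocyte sum (36695 CPM). In each of the 7 panels the groups overlap.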

How the data were processed

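RNA-seq of 6 mouse heart libraries was analysed, 3 WT and 3 Zeb2 cKO, grouped by the sample labels. The authors deposited raw counts per gene. Per the methods, stranded libraries depleted of ribosomal RNA (TruSeq with Ribo-Zero) were read as single-end reads and counted on Gencode M4 (GRCm38) with the STAR workflow. Its version, strand option and treatment of reads with several places are not given in the sources used here. The authors' DESeq test was not run.

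Symbols, coordinates and transcript lengths came from Gencode M21, which named 36345 of 38293 genes. Library sizes were scaled by the TMM method (edgeR 4.0.16 under R 4.3.3), and genes were filtered with filterByExpr and tested with glmQLFit and glmQLFTest, with Benjamini-Hochberg adjustment over 14746 genes and a prior count of 0.125 for log2 fold changes. The biological coefficient of variation was 0.243. Counting error was small at this depth except for genes of a few counts, so the spread between mice set the precision. Ratios were compared as log2 values by exact permutation tests (Python 3.11.15, scipy 1.17.1). The edgeR and DESeq2 fits were tested on simulated data, with 100 changed genes for each size of change. At a log2 fold change of size 1 edgeR recovered 49 of them and DESeq2 52, so changes of this size can be missed. At size 2 both recovered 99. False calls were 7 in edgeR and 22 in DESeq2.

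The 7 genes, the other lists and the tests were chosen with earlier results of these data known. Named were the 7 genes, their neighbours, Zeb2, the 3 most similar genes of each, and in each list of related genes the smallest p in either direction, every gene with an unadjusted p under 0.05 and genes chosen for their role after their values were seen. Not all of them are printed. Alternatives were DESeq2 1.42.0 (size factors and Wald test), other scalings, no filter, robust dispersion, a replicate block and leaving out each library.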

Additional observations from a re-analysis of the deposited data

How the results depend on the processing

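The count of the 7 genes past an adjusted p of 0.05 was 0 in the main edgeR fit and in all 13 alternatives, and so was that of the other lists. At an unadjusted p under 0.05, 1 of the 7 genes passed, and 2 without WT replicate 1. Of the 140 genes of the other lists 1 passed, against 4 with scaling to cardiomyocyte reference genes and 8 in DESeq2. The number of genes tested differed in the other settings. Without the filter on low counts 9 of 156 passed. With 1 library left out 3 to 26 passed (26 of 145 without WT replicate 1 and 6 of 144 without WT replicate 2). Over all 14746 genes tested, 280 had an unadjusted p under 0.05, against 163 with that scaling and 600 of 24115 without the filter. The counts were 1134 of 15075 without WT replicate 1, 122 of 15009 without Zeb2 cKO replicate 1 and 181 of 15021 without Zeb2 cKO replicate 2. That scaling moved the median log2 fold change of all genes to -0.24, and with it Actc1 turned to -0.10. On it Nppa stood at -1.84, still below that median.

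With 1 library left out, log2 fold changes ran from -1.64 to -0.93 for Nppa, -0.90 to -0.24 for Nppb, -0.15 to 0.57 for Myh6, -0.37 to 0.10 for Myh7, -0.25 to 0.73 for Acta1, -0.0804 to 0.19 for Actc1 and -0.62 to -0.17 for Ankrd1. Differences of log2 ratios ran from -0.87 to 0.34 for Myh7 to Myh6, -0.55 to 0.67 for Acta1 to Actc1, 0.60 to 1.13 for Nppb to Nppa and -2.20 to -0.81 for Nppa to Myh6. The sign turned for Myh6 without WT replicate 2 and for Acta1 without Zeb2 cKO replicate 3. It turned for Myh7 without WT replicate 1 or 2, and for Actc1 without WT replicate 2 or Zeb2 cKO replicate 1 (-0.00638). The Myh7 to Myh6 ratio turned without WT replicate 2, and the Acta1 to Actc1 ratio without WT replicate 1 (-0.08), WT replicate 2 (-0.10), Zeb2 cKO replicate 1 (-0.04) or Zeb2 cKO replicate 3. The cause was not tested.

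The replicate numbers are shared by the groups but come from different mice, and deviations of libraries with the same number correlated at 0.09, -0.14 and -0.09. With the number as a replicate block 247 genes had an unadjusted p under 0.05 instead of 280, 3 of them in the other lists, Nppa was at -1.32 (unadjusted p = 0.0197, edgeR) and Myh7 turned to 0.0108. Correlations between the 7 genes were recomputed without WT replicate 2, with no test, and not without the other libraries. With 3 mice a group, changes smaller than the spread between mice cannot be seen, and reads shared by Myh6 and Myh7 limit their ratio.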
